A study of Mus musculus with 25 samples.

Results

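The genes described here are 36 listed enzymes and helper proteins of ceramide, sphingomyelin and glycosphingolipid metabolism, out of 18193 mouse genes with a probe set of their own on the arrays. They were chosen by symbol, with earlier results of these data known, and each gene was read through the probe set with the highest mean over the 25 arrays. A probe set with a single gene symbol was found for 34 of the 36 (Ormdl2 and Ormdl3 shared theirs with other symbols), and 33 passed a filter on low values. Degs2, a dihydroceramide desaturase and hydroxylase, did not pass it, with levels of 6.07 to 6.62 across the arrays. Levels are log2(signal + 16) throughout, and a difference or fold change is on the same scale, which understates the change of dim genes.

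RNA was taken from the lungs of female wild-type C57BL/6J mice, 25 in all, between 14 and 17 weeks of age and 20 to 25 g in weight. The control group received phosphate-buffered saline (PBS, n = 4). Mice of the groups called fTyS, SEW and FTY (n = 3 each) were injected intraperitoneally 2 times a week with 0.1 mg/kg of (S)-FTY-phosphonate, SEW-2871 or FTY720. The radiation group (n = 3) had a single 25 Gy dose to the chest, and the groups radiation+fTyS, radiation+SEW and radiation+FTY (n = 3 each) had that dose and a compound. FTY720 is a sphingosine analogue, and its phosphorylated form, made by cells, is a ligand of sphingosine 1-phosphate receptors. (S)-FTY-phosphonate carries a phosphonate in place of the phosphate of that product, and SEW-2871 is a receptor agonist that is not built on sphingosine. The time from irradiation to collection is not given, and whether the radiation group received PBS is not stated. The labels give lung tissue as the source, a mix of cells, so fewer cells of a type and less RNA per cell cannot be told apart.

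Ceramide sits at the centre of these pathways. Serine palmitoyltransferase and the enzymes after it build ceramide de novo, sphingomyelinases release it from sphingomyelin, and ceramidases cut it to sphingosine, the precursor of sphingosine 1-phosphate. Ceramide is also turned into sphingomyelin, ceramide 1-phosphate or glycosphingolipids, and the last are taken apart in the lysosome by hydrolases that work with small activator proteins. In lung, ceramide released in endothelium and epithelium is known for its link to barrier failure and to cell death after radiation.

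Many lysosomal genes carry an E-box in their promoter, the letters CACGTG, which read the same on both strands. Of the 36 members, 33 matched a RefSeq promoter (build GRCm38.p6, 250 bases before the start to 50 after it), and 8 of those 33 genes held the motif: Cers2, Cers6, Degs1, Smpd2, Sgms2, Arsa, Glb1 and Gla. That is 24.2% of the matched members against 8.09% of the 27025 genes in the promoter table. Counted by promoter, since some genes have several, it is 18.2% of 44 against 7.15% of 32851. Of the holders, Arsa, Glb1 and Gla are lysosomal, and Gla alone of these was called for radiation over the 4 backgrounds described below. The longer form TCACGTGA, which contains the shorter one, was found in Gla alone of the members and in 1.12% of all genes. Shown here, with CACGTG in capitals, are the promoters of the 3 holders that passed the test in any comparison. A match describes letters in this window and is no evidence of binding.
Gla, chrX:134600956-134601255, minus strand: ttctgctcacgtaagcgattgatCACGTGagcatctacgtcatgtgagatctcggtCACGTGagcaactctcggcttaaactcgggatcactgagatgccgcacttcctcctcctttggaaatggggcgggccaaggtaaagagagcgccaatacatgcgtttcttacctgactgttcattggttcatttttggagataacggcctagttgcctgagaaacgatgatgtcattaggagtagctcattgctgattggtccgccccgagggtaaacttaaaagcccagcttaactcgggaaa
Glb1, chr9:114400828-114401127, plus strand: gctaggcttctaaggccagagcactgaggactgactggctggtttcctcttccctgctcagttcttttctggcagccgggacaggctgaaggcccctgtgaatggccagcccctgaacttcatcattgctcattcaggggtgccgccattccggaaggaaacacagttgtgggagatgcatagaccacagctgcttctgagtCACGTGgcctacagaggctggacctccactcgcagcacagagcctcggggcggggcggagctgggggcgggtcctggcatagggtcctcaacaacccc
Degs1, chr1:182282146-182282445, minus strand: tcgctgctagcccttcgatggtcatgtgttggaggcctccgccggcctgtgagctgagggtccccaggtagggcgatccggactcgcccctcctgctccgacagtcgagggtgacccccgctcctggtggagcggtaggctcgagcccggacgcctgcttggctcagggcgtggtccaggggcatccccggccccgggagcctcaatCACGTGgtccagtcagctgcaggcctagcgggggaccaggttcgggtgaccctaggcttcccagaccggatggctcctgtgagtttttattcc

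The tissue was lung by its markers: the mean level of 6 alveolar type 2 genes was 12.3 to 12.7 and that of 3 club cell genes 13.2 to 13.3 on all arrays. Array medians ran from 118.33 to 129.58 signal units. A list of 9 p53 targets, the transcripts that radiation is known to raise, had a mean level of 10.28 to 10.46 on the 12 irradiated arrays and of 9.31 to 9.72 on 12 of the 13 unirradiated ones. The array labelled control replicate 4 stood at 10.43, among the irradiated arrays, so results that use the control are given with and without it where they differ. The mean of the skeletal muscle list ranged from 6.89 to 12.70 between arrays and that of the adipocyte list from 6.37 to 10.18. The T cell list mean was 9.06 on FTY replicate 3 against 6.66 to 7.41 elsewhere. List means take in matched genes below the filter, which were not tested. These are Cxcr2 (neutrophil), Marco (alveolar macrophage), Cd3e (T cell) and Lep (adipocyte). Differences were tested in a limma fit of all 25 arrays, with Benjamini-Hochberg adjustment over 12929 genes in each of 20 comparisons, and a gene was called at an adjusted p of at most 0.05.

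Across the members, 16 of 33 were called in at least 1 comparison and 17 in none. The calls numbered 38 in all, and 10 of the 20 comparisons held no called member. Most calls in a single comparison came with radiation: averaged over the 4 backgrounds (no compound, fTyS, SEW and FTY), 8 members rose and 2 fell. The 10 called members are 30.3% of the 33, against 20.9% of all genes tested (14.4% called higher and 6.44% called lower). The 4 backgrounds share no arrays, and 11 members had 1 sign in all 4 of them (9 higher and 2 lower), against 19.2% of all genes. The median member difference was 0.05, against 0.02 over all genes.

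**Figure D1:**
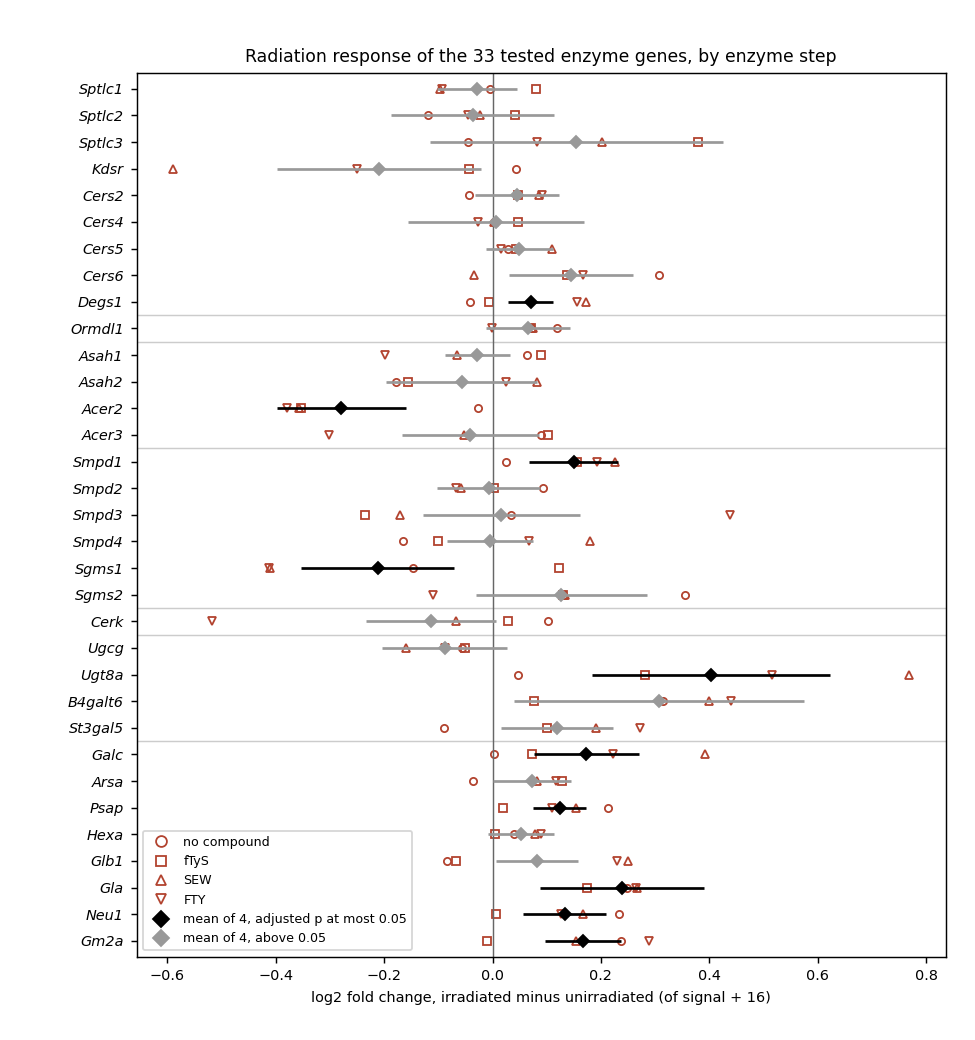
Log2 fold change of irradiated over unirradiated lung for the 33 tested members, grouped by enzyme step from de novo synthesis (top) to lysosomal breakdown (bottom). Open symbols give each of the 4 backgrounds, diamonds their mean with its 95% confidence interval, and black diamonds mark the 10 called members, from -0.28 for Acer2 to 0.40 for Ugt8a; all 8 genes of lysosomal breakdown lie above 0.

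All 8 members that break down glycosphingolipids had a positive mean difference and 5 of them rose: Galc, Psap, Gla, Neu1 and Gm2a. Over all genes tested 14.4% were called higher and 6.44% lower, and the median difference was 0.02. With the 2 lysosomal members that act on ceramide and sphingomyelin themselves, Asah1 and Smpd1, 6 of 10 rose and the median difference was 0.13, while the 23 tested members outside the lysosome had a median of 0.01 with 2 up and 2 down. The changes were small, the largest of them 1.18-fold. The members, and the marker and lysosomal lists below, were chosen with earlier results of these data known, so their counts are no independent support.

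Psap encodes prosaposin, the precursor of the saposins that present lipids to the hydrolases. Its level had a lowest value of 12.27, a median of 12.39 and a highest of 12.53 on the 13 unirradiated arrays, and 12.44, 12.49 and 12.61 on the 12 irradiated ones. The upper end of the first range and the lower end of the second overlapped. The difference was 0.12 ± 0.02 (SE; adjusted p = 0.00103).

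Gm2a encodes the activator that lifts ganglioside GM2 out of the membrane. It ran from 10.74 through a median of 10.91 to 11.16 without radiation and from 10.95 through 11.06 to 11.25 with it, a difference of 0.17 ± 0.03 (SE; adjusted p = 0.00174). Gla, the alpha-galactosidase missing in Fabry disease, ran from 6.66 through 6.85 to 7.22 without radiation and from 6.91 through 7.07 to 7.57 with it. Its difference was 0.24 ± 0.07 (SE; adjusted p = 0.0246), and positive in each of the 4 backgrounds at 0.25, 0.17, 0.27 and 0.26.

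Galc, which removes galactose from galactosylceramide and is missing in Krabbe disease, ran from 8.57 through 8.79 to 9.03 without radiation and from 8.75 through 8.90 to 9.19 with it. The difference was 0.17 ± 0.05 (SE; adjusted p = 0.0121), with 0.39 and 0.22 in the SEW and FTY backgrounds against 0.00 and 0.07 in the no-compound and fTyS backgrounds. Of 2 dimmer Galc probe sets, 1 gave 0.05 and the other -0.43, and the mean of all Galc probe sets gave -0.07 (adjusted p = 0.383), so the direction depends on the probe set. Neu1, the lysosomal sialidase, ran from 7.98 through 8.18 to 8.28 without radiation and from 8.14 through 8.26 to 8.57 with it. Its difference was 0.13 ± 0.04 (SE; adjusted p = 0.0138), and it was 0.01 in the fTyS background against 0.13 to 0.23 in the other backgrounds.

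Smpd1, acid sphingomyelinase, ran from 10.09 through 10.28 to 10.37 without radiation and from 10.26 through 10.41 to 10.55 with it. The difference was 0.15 ± 0.04 (SE; adjusted p = 0.0103), and a second Smpd1 probe set gave 0.19. By background it was 0.03 without a compound and 0.16, 0.23 and 0.19 under fTyS, SEW and FTY. Whether the values under a compound differ from that without one was tested below as an interaction, and none was called for Smpd1. The 4 lysosomal members that were not called had differences of 0.08 (Glb1, beta-galactosidase), 0.07 (Arsa, arylsulfatase A), 0.05 (Hexa, a subunit of beta-hexosaminidase) and -0.03 (Asah1, acid ceramidase). Averaging all probe sets of a gene ended the calls of Psap (adjusted p = 0.0813) and Neu1 (adjusted p = 0.381), and left those of Smpd1, Gla and Gm2a.

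**Figure D2:**
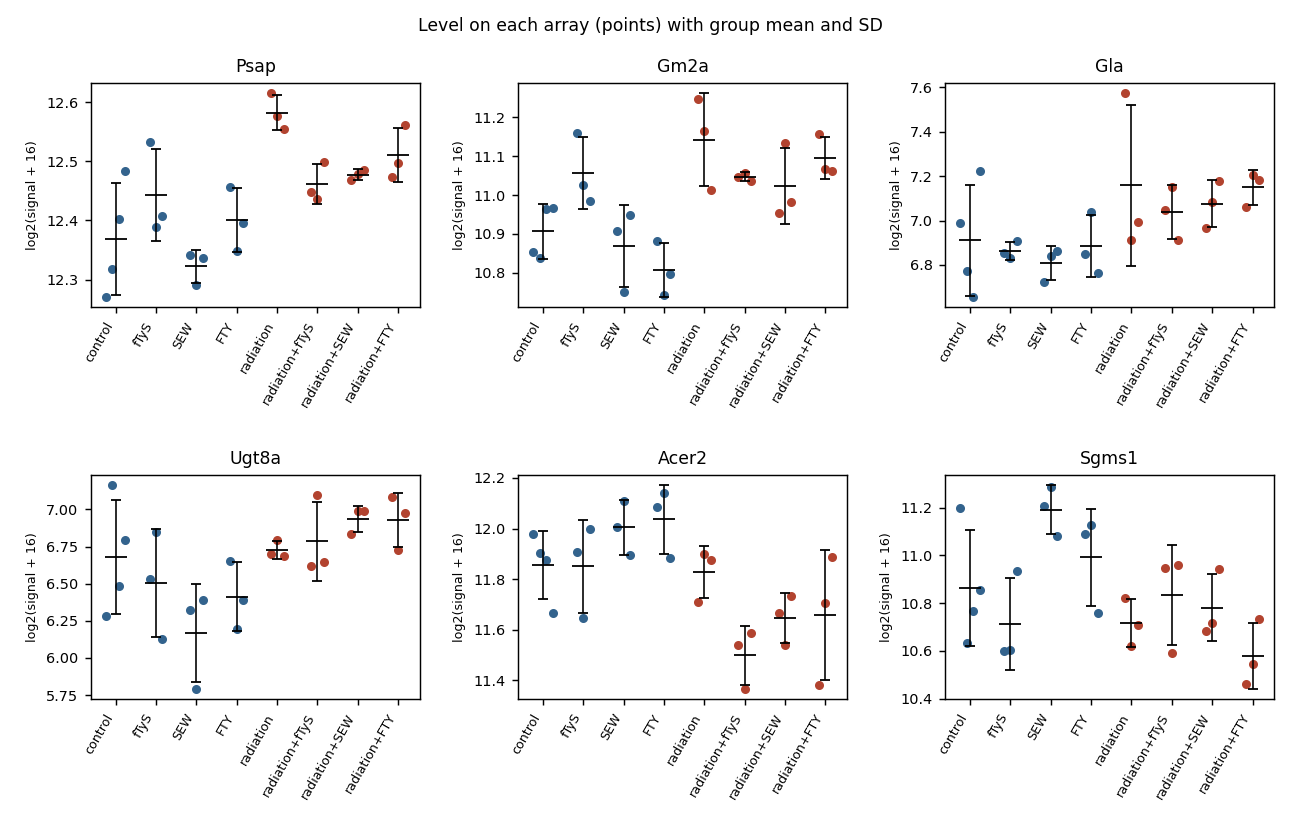
Levels as log2(signal + 16) of 6 members called for radiation, by group, with a point for each array and the group mean with its SD (blue unirradiated, red irradiated; n = 4 for control and 3 elsewhere). Psap in the radiation group sits at 12.56 to 12.61, above all 4 control arrays at 12.27 to 12.48. Acer2 runs from 11.37 to 11.89 in the 3 groups that had radiation and a compound, and overlaps control (11.66 to 11.98) and radiation (11.71 to 11.90).

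Monocyte and macrophage markers and neutrophil markers rose with radiation as well, the latter unevenly between groups. The mean of the 10 lysosomal members was 9.83 to 10.06 on unirradiated arrays and 10.002 to 10.15 on irradiated ones. The mean of 8 monocyte and macrophage genes was 9.50 to 9.995 and then 9.90 to 10.55, and 6 of the 8 rose (8 of 10 listed genes were matched, and the dimmest, Itgam, was at 6.72 or above on all arrays). Of 8 tested alveolar macrophage genes 3 rose and 3 fell, and the list mean was 9.30 to 9.68 without radiation and 8.90 to 9.55 with it. Of 8 neutrophil genes 7 rose, with list means of 6.82 to 8.04 and then 7.05 to 10.46. By group the neutrophil mean was 9.91 in radiation, 8.03 in radiation+fTyS, 7.79 in radiation+SEW and 8.79 in radiation+FTY. Unirradiated groups lay between 7.07 (SEW) and 7.85 (fTyS). The 10 lysosomal members were at 10.07, 10.03, 10.06 and 10.06 in the same irradiated groups. The part of these cells in the lysosomal result was not tested. Lysosomal genes outside the sphingolipid pathway showed a like count: of 21 tested, 12 rose and 1 fell, against 14.4% and 6.44% of all genes. Among those that rose were Ctsk (cathepsin K) at 0.60, Lgmn (legumain) at 0.28 and Ctsa (protective protein of Neu1 and Glb1) at 0.23. Npc1, the cholesterol exporter, was the faller at -0.17.

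Outside the lysosome, Acer2 and Sgms1 fell and Degs1 and Ugt8a rose. Acer2 is the Golgi alkaline ceramidase. Its level ran from 11.65 through 11.91 to 12.14 without radiation and from 11.37 through 11.69 to 11.90 with it, a difference of -0.28 ± 0.06 (SE; adjusted p = 0.00189). It was negative in the 4 backgrounds, at -0.03 without a compound and -0.35, -0.36 and -0.38 under fTyS, SEW and FTY. Whether the last 3 differ from the value without a compound was tested below as an interaction, and none was called for Acer2. A second, dim Acer2 probe set gave -0.32. The other 3 ceramidases were not called, at -0.03 (Asah1), -0.06 (Asah2, neutral ceramidase) and -0.04 (Acer3).

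Sgms1, the Golgi sphingomyelin synthase, ran from 10.60 through 10.93 to 11.28 without radiation and from 10.46 through 10.71 to 10.96 with it. The difference was -0.21 ± 0.07 (SE; adjusted p = 0.0311), with 0.12 in the fTyS background against -0.15, -0.41 and -0.41 in the others. The call was lost without any 1 of 9 arrays (fTyS replicate 3, SEW replicate 2, FTY replicates 1 and 2, radiation replicate 2, radiation+fTyS replicate 2, radiation+SEW replicates 1 and 2, and radiation+FTY replicate 1; adjusted p 0.0527 to 0.0617), and with quantile normalization (0.0566) or median centring (0.0641). Of 3 other Sgms1 probe sets, 2 gave -0.45 and -0.29 and the dimmest 0.10.

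Degs1, which makes the double bond that turns dihydroceramide into ceramide, ran from 11.51 through 11.64 to 11.75 without radiation and from 11.62 through 11.71 to 11.80 with it. The difference was 0.07 ± 0.02 (SE; adjusted p = 0.0154), but a second bright Degs1 probe set gave -0.02 and the mean of both 0.02 (adjusted p = 0.657). Ugt8a, which builds galactosylceramide, ran from 5.79 through 6.39 to 7.16 without radiation and from 6.62 through 6.82 to 7.09 with it. The difference was 0.40 ± 0.11 (SE; adjusted p = 0.0101), the largest of the members, at a level just above the filter of 6.49. Its mean was 6.46 on the unirradiated arrays, below the filter, and 6.84 on the irradiated ones, through which it passed. By background the difference was 0.05 without a compound and 0.28, 0.77 and 0.52 under fTyS, SEW and FTY. No interaction of radiation with a compound was called for Ugt8a. A second, dim Ugt8a probe set gave 0.09. The highest unirradiated array, at 7.16, was control replicate 2.

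Of the 17 members never called, 7 belong to de novo synthesis. Sptlc1, Sptlc2 and Sptlc3, the subunits of serine palmitoyltransferase, gave radiation differences of -0.03, -0.04 and 0.15, and their regulator Ormdl1 gave 0.07. The ceramide synthases Cers2, Cers4 and Cers5 lay between 0.01 and 0.05, and Cers6 came nearest to a call at 0.14 ± 0.05 (SE; adjusted p = 0.0668). In glycosphingolipid synthesis, B4galt6 (lactosylceramide synthase) gave 0.31 (adjusted p = 0.0954). St3gal5, which makes ganglioside GM3, gave 0.12 and came nearest to a call in radiation+FTY against FTY (0.27, adjusted p = 0.0761). Smpd2, a neutral sphingomyelinase, gave -0.01, Sgms2 0.13 and Ugcg -0.09. Acer3, the alkaline ceramidase of the endoplasmic reticulum and Golgi, came nearest in radiation+FTY against radiation (-0.43, adjusted p = 0.059). Over the 20 comparisons, the differences of the 17 lay between -0.46 and 0.47, the low end being Sgms2, the plasma membrane sphingomyelin synthase, in the interaction of radiation with FTY and the high end B4galt6 in fTyS against control.

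Of the other sphingolipid genes, 28 of 36 listed were tested and 4 rose and 2 fell with radiation over the 4 backgrounds, 21.4% of them, which is near the 20.9% of all genes. Sgpp1, the sphingosine 1-phosphate phosphatase, rose by 0.17, Sphk2, the kinase that phosphorylates sphingosine and FTY720, by 0.22, and B4galnt1, GM2 synthase, by 0.25. Cert1, the carrier of ceramide to the Golgi, fell by 0.14.

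Radiation without a compound, against the control, raised Psap and Gm2a: 2 of 33 members (6.06%), against 4.41% of all genes. Psap was 12.61, 12.58 and 12.56 in the radiation group and 12.27, 12.32, 12.40 and 12.48 in the control. No array overlapped between the groups. The difference was 0.21 ± 0.04 (SE; adjusted p = 0.00796), or 0.25 (adjusted p = 0.000892) without control replicate 4, and without radiation replicate 1 the call was lost (0.20, adjusted p = 0.0566). Gm2a was 11.25, 11.17 and 11.01 against 10.85, 10.84, 10.97 and 10.97. The lowest irradiated array lay just above the highest controls, and the difference was 0.24 ± 0.06 (SE; adjusted p = 0.0402), or 0.26 (adjusted p = 0.0297) without control replicate 4. The Gm2a call was lost without any 1 of control replicates 1, 2 and 3 or radiation replicates 1 and 2 (adjusted p 0.0622 to 0.254), and when its probe sets were averaged (0.186). Averaging ended the Psap call too (adjusted p = 0.0662). Fitted on these 7 arrays alone, neither passed (adjusted p = 0.12 and 0.185). Of 21 other lysosomal genes 6 rose, where 2.3% of all genes were called higher. The 6 included Ctsa at 0.47, Man2b1 (lysosomal alpha-mannosidase) at 0.37 and Ctsk at 0.85. The sphingosine 1-phosphate phosphatase Sgpp2 fell by 0.66. In the same comparison 7 of 8 neutrophil genes and 4 of 8 monocyte and macrophage genes rose, with list means of 9.23 to 10.46 and 10.02 to 10.55 under radiation against 7.06 to 8.04 and 9.50 to 9.995 in control. The upper end of both control ranges was control replicate 4, and the other 3 controls lay at 7.06 to 7.35 and 9.50 to 9.61. Their part in the result was not tested.

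The compounds alone changed few members. With fTyS against control no member passed (0.178% of all genes did), and Gm2a had the smallest p, at 11.16, 11.03 and 10.98 against 10.84 to 10.97 and a difference of 0.15 (95% interval 0.02 to 0.28; adjusted p = 0.281). With SEW 2 of 33 fell (6.06%, against 14.6% of all genes): Galc and Smpd4. With FTY 1 of 33 fell (3.03%, against 2.73%): Degs1. In these comparisons the Gapdh 3′ to 5′ probe signal ratio was 0.889 to 1.05 in SEW, 0.936 to 1.02 in FTY and 1.05 to 1.28 in control, and its part was not tested. Of the 8 members of lysosomal breakdown, 8 had negative differences with SEW (median -0.07, against -0.02 over all genes) and 7 with FTY (median -0.05, against -0.01). These counts rested on control replicate 4, the highest control on this list: without it they were 6 (median -0.02, against -0.03) and 5 (median -0.05, against -0.02). With arrays weighted by quality the counts of called members were 5, 8 and 2 for fTyS, SEW and FTY, and without control replicate 4 they were 0, 3 and 1. The weights moved 15 of the 20 member counts, all upward. The share of all genes under the weights is not given here, so the larger counts are not read as a response of the members.

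Added to radiation, the compounds also moved few. Against radiation alone, no member passed with fTyS (0.859% of all genes) or with SEW (2.48%), and 1 of 33, Asah1, fell with FTY (3.03%, against 3.02%). Neu1 had the smallest p with fTyS, at 8.26, 8.14 and 8.22 against 8.57, 8.34 and 8.39, a difference of -0.23 (95% interval -0.38 to -0.07; adjusted p = 0.172). Its arrays did not overlap. Glb1 had the smallest p with SEW, at 9.37, 9.56 and 9.41 against 9.19, 9.29 and 9.15, a difference of 0.23 (95% interval 0.08 to 0.39; adjusted p = 0.0985). Those groups did not overlap either. The 3 comparisons share the radiation arrays. With arrays weighted by quality these counts were 1, 4 and 3, again without the share of all genes under the weights. Outside the members, Cert1 fell by 0.30 with SEW and by 0.35 with FTY.

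Within a compound, the response to radiation called no member under fTyS (0.456% of all genes), 8 of 33 under SEW (24.2%, against 17.7%) and 7 of 33 under FTY (21.2%, against 14.1%). Under fTyS the smallest p was that of Acer2, at 11.54, 11.37 and 11.59 with radiation and 11.91, 11.65 and 12.00 without, a difference of -0.35 (95% interval -0.60 to -0.11; adjusted p = 0.176). The 8 under SEW were 5 rises and 3 falls, the rises including Ugt8a, whose SEW arrays lay below the filter of 6.49. Leaving out an array left 3, 3 or 4 calls for the SEW replicates in order and 5, 2 or 1 for those of radiation+SEW. The 7 under FTY were 4 rises and 3 falls. Leaving out an array left 4, 2 or 6 for the FTY replicates in order and 4, 4 or 6 for those of radiation+FTY. Whether the response itself differed from that without a compound was tested as an interaction, which called no member for fTyS (1.35% of all genes), 4 for SEW (12.1%, against 13.9%) and 2 for FTY (6.06%, against 6.85%). For fTyS the smallest p was that of Psap, whose response was 0.02 under fTyS and 0.21 without a compound (interaction -0.19, 95% interval -0.33 to -0.06; adjusted p = 0.142, and 0.051 without control replicate 4). The 3 interactions share the radiation and control arrays. Acer2, Neu1, Sgms1, Smpd1 and Ugt8a were called in none of them.

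**Figure D3:**
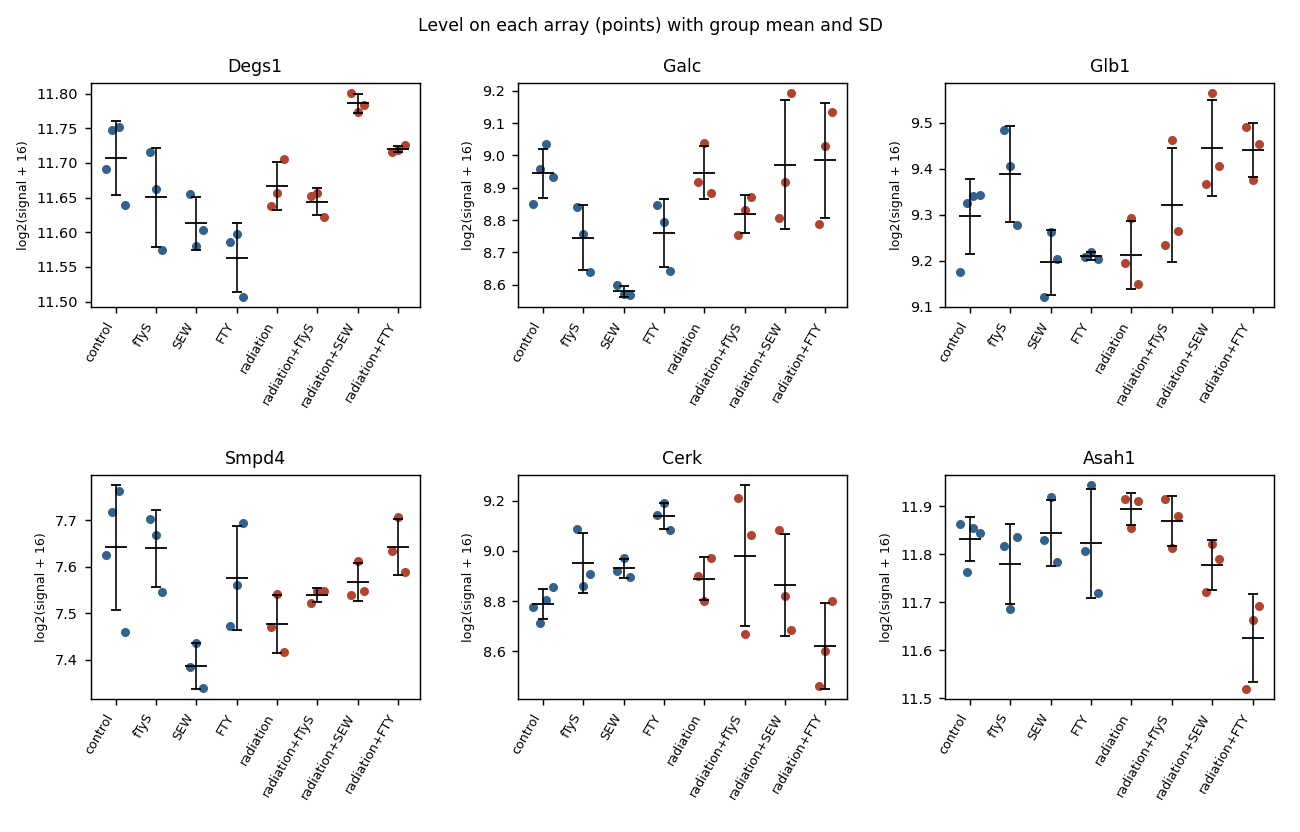
Levels as log2(signal + 16) of 6 members called in a comparison that involves a compound, by group, with a point for each array and the group mean with its SD (blue unirradiated, red irradiated; n = 4 for control and 3 elsewhere). Galc in SEW alone sits at 8.57 to 8.60, below all 4 control arrays at 8.85 to 9.03, and Cerk lies at 9.08 to 9.19 in FTY and at 8.46 to 8.80 in radiation+FTY.

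Degs1 was called in both of these responses, in both interactions and in FTY alone. It was 11.69, 11.75, 11.75 and 11.64 in control and 11.59, 11.60 and 11.51 in FTY, and 11.65, 11.58 and 11.60 in SEW. With radiation it was 11.64, 11.66 and 11.71 alone, 11.72, 11.72 and 11.73 with FTY, and 11.80, 11.77 and 11.78 with SEW. The FTY arrays were all below control and all below radiation+FTY, and the SEW arrays all below radiation+SEW. With FTY alone it fell by 0.14 ± 0.04 (SE; adjusted p = 0.0432). Radiation raised it by 0.16 ± 0.04 under FTY (adjusted p = 0.0153) and by 0.17 ± 0.04 under SEW (adjusted p = 0.00656). The interaction was 0.20 with FTY (SE 0.055; adjusted p = 0.0362) and 0.21 with SEW (same SE; adjusted p = 0.0154).

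The brighter Degs1 probe set carries these calls. The second one, also bright at a mean of 10.75, gave 0.06 for FTY alone, -0.19 and -0.28 for radiation under FTY and SEW, and -0.35 and -0.44 for the interactions, and the mean of both turned the last 4 to -0.02, -0.05, -0.07 and -0.11. The call of FTY alone was lost without any 1 of control replicates 2 and 3 or FTY replicates 1, 2 and 3 (adjusted p 0.0573 to 0.197), with the muscle and adipocyte levels as covariates (0.0637), median centring (0.163) or no filter (0.0643). The FTY interaction was lost without any 1 of 9 arrays (control replicates 2 and 3, FTY replicates 1 and 3, radiation replicates 1 and 2, and the 3 of radiation+FTY; adjusted p 0.0536 to 0.0807) with the same covariates (0.0528) and with no filter (0.0544), and radiation under FTY without FTY replicate 3 (0.061). Median centring ended both interactions (adjusted p = 0.114 for SEW and 0.224 for FTY). Without control replicate 4, Degs1 was also called in SEW against control.

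Kdsr, the ketosphinganine reductase of de novo synthesis, was 9.90, 9.77 and 9.82 in SEW and 9.34, 9.31 and 9.07 in radiation+SEW. The groups did not overlap, and the difference was -0.59 ± 0.18 (SE; adjusted p = 0.0316), against 0.04 without a compound. The interaction with SEW was -0.63 (95% interval -1.16 to -0.11; adjusted p = 0.0992) and was not called. Both other Kdsr probe sets were negative as well, at -0.27 and -0.42. The call was lost without any 1 of the 3 SEW arrays or radiation+SEW replicates 2 and 3 (adjusted p 0.0583 to 0.139).

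Among the ceramidases, Acer2 was 12.01, 12.11 and 11.90 in SEW and 11.67, 11.54 and 11.73 in radiation+SEW, and 12.08, 12.14 and 11.88 in FTY and 11.38, 11.70 and 11.89 in radiation+FTY. The SEW pair did not overlap and the FTY pair did, by 1 array. The fall with radiation was -0.36 ± 0.12 under SEW (SE; adjusted p = 0.0379) and -0.38 ± 0.12 under FTY (adjusted p = 0.035). These calls were lost without any 1 of SEW replicates 1 and 2 or the 3 radiation+SEW arrays (adjusted p 0.0667 to 0.134), and without any 1 of FTY replicates 1 and 2 or radiation+FTY replicates 1 and 2 (adjusted p 0.066 to 0.199). Without radiation+FTY replicate 1 the fall under FTY was -0.24. Quantile normalization ended both (0.107 and 0.0636), and averaged probe sets the second (0.0762).

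Asah1, acid ceramidase, had its lowest mean in the group that had both radiation and FTY, but its interaction of radiation with FTY was not called. It was 11.52, 11.66 and 11.69 there, 11.91, 11.86 and 11.91 in radiation, 11.91, 11.81 and 11.88 in radiation+fTyS and 11.81, 11.94 and 11.72 in FTY. All 3 radiation+FTY arrays lay below every array of those groups. The difference was -0.27 ± 0.06 from radiation (SE; adjusted p = 0.0214), -0.20 ± 0.06 from FTY (adjusted p = 0.0297) and 0.24 ± 0.06 for radiation+fTyS over radiation+FTY (adjusted p = 0.0294). Leaving out single arrays ended each call: radiation replicate 1 or 3 or radiation+FTY replicate 1 for the first (adjusted p 0.0572 to 0.117), FTY replicate 1 or 2 or radiation+FTY replicate 1 for the second (0.0608 to 0.164), and radiation+fTyS replicate 1 or 3 or radiation+FTY replicate 1 or 2 for the third (0.0684 to 0.144). Mesothelial genes moved beside it: 3 of 4 rose in radiation+FTY against radiation, with list means of 9.43 to 9.77 against 8.32 to 8.64. Other markers fell there: 2 of 8 neutrophil genes (Clec4d by 1.41 and Trem1 by 0.94; list means 8.23 to 9.39 against 9.23 to 10.46), 1 of 8 alveolar macrophage genes (Cd9 by 0.30) and 2 of 3 club cell genes (Cyp2f2 by 0.26 and Scgb3a2 by 0.11). No monocyte and macrophage gene of 8 was called, with list means of 9.99 to 10.20 against 10.02 to 10.55. List means also lay apart for adipocyte (8.45 to 9.91 against 6.66 to 7.63) and B cell genes (9.21 to 9.51 against 7.23 to 9.10), both higher in radiation+FTY. Those of endothelial genes were lower there (11.55 to 11.89 against 11.93 to 12.01). Over all genes 1.94% were called higher and 1.08% lower in this comparison. With muscle and adipocyte levels as covariates the first difference was -0.19 (adjusted p = 0.0835) and the second -0.15 (0.0532). The second was also lost with quantile normalization (0.0753) and median centring (0.0568), and the third with both (0.0619 and 0.0754). The mesothelial list mean was 8.64 to 9.09 in FTY and 8.34 to 9.30 in radiation+fTyS. The part of these cell types was not tested.

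In sphingomyelin metabolism, Smpd4, a neutral sphingomyelinase of the nuclear envelope and endoplasmic reticulum, was 7.39, 7.44 and 7.34 in SEW and 7.62, 7.72, 7.76 and 7.46 in control. No array overlapped. It fell by 0.25 ± 0.07 with SEW (SE; adjusted p = 0.0247; -0.32 and 0.00689 without control replicate 4). Radiation moved it by -0.17 without a compound and 0.18 under SEW, and the interaction was 0.34 ± 0.11 (SE; adjusted p = 0.0348). Of the 3 other Smpd4 probe sets, 2 gave -0.20 and -0.41 for SEW alone and 0.36 and 0.51 for the interaction, and the brightest of them -0.07 and -0.04. The first call was lost without any 1 of control replicates 2 and 3 or SEW replicates 1 and 3 (adjusted p 0.0676 to 0.1), the interaction without those 4, radiation replicates 1 and 3 or radiation+SEW replicates 2 and 3 (adjusted p 0.0667 to 0.0821), and also with quantile normalization (0.088), median centring (0.081) or no filter on low values (0.0561).

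Smpd3, neutral sphingomyelinase 2, was 8.07, 7.81 and 8.02 in FTY and 8.43, 8.42 and 8.35 in radiation+FTY. The groups did not overlap, and the difference was 0.44 ± 0.14 (SE; adjusted p = 0.0431), lost without any 1 of the 6 arrays (adjusted p 0.061 to 0.167). It was also lost with quantile normalization (0.0565), median centring (0.0527), no filter (0.0591) and averaged probe sets (0.217). Sgms1 was 11.21, 11.28 and 11.08 in SEW and 10.68, 10.72 and 10.94 in radiation+SEW, again without overlap. The difference was -0.41 ± 0.14 (SE; adjusted p = 0.0441), lost without any 1 of the 6 arrays (adjusted p 0.055 to 0.132). It was also lost with quantile normalization (0.0832), median centring (0.072), no filter (0.0573) and averaged probe sets (0.054). Of its other probe sets, 2 gave -0.93 and -0.70 and the dimmest 0.28.

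Cerk, ceramide kinase, makes ceramide 1-phosphate. It was 9.14, 9.19 and 9.08 in FTY and 8.46, 8.60 and 8.80 in radiation+FTY, while control was 8.78, 8.71, 8.80 and 8.86 and radiation 8.90, 8.80 and 8.97. All FTY arrays lay above both other groups, and radiation+FTY replicate 3 reached into the ranges of both. With radiation Cerk fell by 0.52 ± 0.12 under FTY (SE; adjusted p = 0.00717), a call kept with each array left out and under each alternative tried. Without a compound the difference was 0.10, and the interaction was -0.62 ± 0.16 (SE; adjusted p = 0.0259). That interaction was kept under each other alternative but lost without FTY replicate 1 or 2, radiation replicate 3 or radiation+FTY replicate 1 or 2 (adjusted p 0.05 to 0.0683).

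In glycosphingolipid synthesis, Ugt8a was 6.32, 5.79 and 6.39 in SEW and 6.83, 6.99 and 6.99 in radiation+SEW. The groups did not overlap, and the difference was 0.77 ± 0.21 (SE; adjusted p = 0.0174). It was lost without SEW replicate 2 or radiation+SEW replicate 2 or 3 (adjusted p 0.053 to 0.0952) and with the mean of both Ugt8a probe sets, which was 0.33 (0.128), since the second, dim at 4.55, gave -0.11. Ugcg, which makes glucosylceramide and opens the other branch, gave -0.16 there and was not called in any comparison.

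Galc was 8.60, 8.57 and 8.57 in SEW, 8.85, 8.96, 9.03 and 8.93 in control, 8.92, 9.04 and 8.88 in radiation and 8.81, 8.92 and 9.19 in radiation+SEW. The SEW arrays lay below every other of these. With SEW alone Galc fell by 0.36 ± 0.09 (SE; adjusted p = 0.0107), kept with each array left out, and radiation raised it by 0.39 ± 0.09 under SEW (adjusted p = 0.00815), lost only without radiation+SEW replicate 3 (0.28, adjusted p = 0.0668). The interaction was 0.39 ± 0.13 (SE; adjusted p = 0.0497). It passed narrowly, and was lost without any 1 of 10 of 13 arrays (all but control replicate 1, radiation replicate 2 and radiation+SEW replicate 1; adjusted p 0.0628 to 0.165) and with a pseudocount of 64 (0.0516), no filter (0.0681), quantile normalization (0.115) or median centring (0.126). The mean of the Galc probe sets gave -0.13, -0.05 and 0.01 for the 3 results.

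Glb1 was 9.12, 9.26 and 9.20 in SEW and 9.37, 9.56 and 9.41 in radiation+SEW, and 9.21, 9.22 and 9.20 in FTY and 9.49, 9.38 and 9.45 in radiation+FTY. Neither pair overlapped. Radiation raised it by 0.25 ± 0.07 under SEW (SE; adjusted p = 0.023) and by 0.23 ± 0.07 under FTY (adjusted p = 0.0415), against -0.08 without a compound. The interaction with SEW was 0.33 ± 0.10 (SE; adjusted p = 0.0315), and 0.32 (0.0501) without control replicate 4. That with FTY was 0.31 (95% interval 0.10 to 0.52; adjusted p = 0.0634) and was not called. Each of these was lost without 1 of several arrays: SEW replicates 1 and 3 and radiation+SEW replicates 2 and 3 for the first (adjusted p 0.055 to 0.12), any of the 6 for the second (0.0559 to 0.137), and control replicates 2, 3 and 4, SEW replicates 1 and 3, radiation replicates 1 and 3 and radiation+SEW replicates 2 and 3 for the interaction (0.0501 to 0.0907). The second was also lost with quantile normalization (0.0617) or no filter (0.0566), and the interaction with quantile normalization (0.0641) or median centring (0.0633).

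Psap under SEW was 12.34, 12.29 and 12.34 without and 12.47, 12.48 and 12.49 with radiation. The groups did not overlap and the difference was 0.15 ± 0.05 (SE; adjusted p = 0.03), lost without any 1 of the 6 arrays (adjusted p 0.056 to 0.0992) and with median centring (0.0855). The second Psap probe set, bright at 11.40, gave -0.10, and averaging both gave 0.03 (0.896). Gm2a under FTY was 10.88, 10.74 and 10.80 without and 11.16, 11.07 and 11.06 with radiation, again without overlap. Its difference was 0.29 ± 0.07 (SE; adjusted p = 0.0104), lost without FTY replicate 2 (0.26, adjusted p = 0.0504), and 0.21 (0.0948) with the mean of its probe sets. The probe sets disagreed: the second, at a mean of 8.99, gave -0.14, and a dim one at 4.89 gave 0.49. The monocyte and macrophage list mean was 9.54 on the 3 FTY arrays and 9.99 to 10.20 in radiation+FTY, and 9.52 to 9.64 in SEW and 9.90 to 10.09 in radiation+SEW. Its part in these results was not tested. Fitted on only the arrays compared, which leaves fewer residual degrees of freedom, 14 further calls were lost: Smpd4 under SEW, Degs1 under FTY, Asah1 in radiation+FTY against radiation and against radiation+fTyS, Glb1 in radiation+SEW, 6 of the 7 in radiation+FTY against FTY (all but Cerk), and the interactions of Smpd4 and Galc with SEW and of Degs1 with FTY (adjusted p 0.0502 to 0.249).

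Set against each other at the same dose, the compounds differed in 1 member in the 6 comparisons of pairs made (3 pairs, without and with radiation; p-values adjusted over genes within each): Asah1 between radiation+fTyS and radiation+FTY (3.03% of members, against 3.95% of all genes). These 2 compounds differ by the phosphonate. Without radiation the same pair called no gene of any kind (0%; 769 genes at an unadjusted p under 0.05), and the member with the smallest p was Gm2a, at 11.16, 11.03 and 10.98 in fTyS and 10.88, 10.74 and 10.80 in FTY, a difference of 0.25 (95% interval 0.11 to 0.39; adjusted p = 0.73). SEW and FTY, which differ in scaffold, called no gene without radiation (0%; 1178 at an unadjusted p under 0.05), with Smpd3 nearest at 0.36 (95% interval 0.07 to 0.65; adjusted p = 0.467). They called none with radiation either (0%; 1036 at an unadjusted p under 0.05), with Asah1 nearest at 0.15 (95% interval 0.03 to 0.27; adjusted p = 0.541). Between fTyS and SEW no member passed without radiation (1.55% of all genes), Sgms1 being nearest at 10.60, 10.60 and 10.93 against 11.21, 11.28 and 11.08, a difference of -0.48 (95% interval -0.77 to -0.19; adjusted p = 0.0736, and 0.0413 without fTyS replicate 3). With radiation no gene passed between them (0%; 1414 at an unadjusted p under 0.05), and Degs1 was nearest at -0.14 (95% interval -0.23 to -0.06; adjusted p = 0.236). A p above the threshold does not show that the compounds act alike, and the intervals allow differences of the sizes given.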

How the data were processed

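The deposited values are Affymetrix signal intensities, 1 value per probe set and array, made by the submitters with GCOS per the submitters' processing notes. The summary method and the scaling are not given in the sources used here. RNA (6 µg, Trizol) was biotin-labelled per the labels' protocols. Of 45101 probe sets, 64 were controls, 34945 had 1 gene symbol in GEO's platform annotation, 932 several and 9160 none. For each gene the single-symbol probe set with the highest mean log2(signal + 16) over 25 arrays was used, and genes whose mean was above the 40th percentile of all probe sets (6.49) were tested, 12929 of 18193. No further normalization was applied. Group means of the 8 groups were fitted in limma 3.58.1 (R 4.3.3; lmFit, eBayes with trend; 17 residual degrees of freedom), with two-sided tests and Benjamini-Hochberg adjustment over all genes tested in each of 20 comparisons. Precision is limited by the number of arrays. The fit was tested on simulated arrays with independent noise and changes of 1 log2 unit. These are larger than the member changes, so the simulation does not cover changes of their size.

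The members and lists were chosen with earlier results of these data known. Values in every sample were given for members that were called, or that had the smallest p in a comparison with no call. Alternatives were quantile normalization, median centring, pseudocounts of 1 and 64, no filter, a 60th percentile filter, averaged probe sets, array weights, the replicate number as a block, muscle and adipocyte levels as covariates, leaving out single arrays, and separate fits of the arrays in a comparison. The labels name the source of each array as an animal and give no batch. Groups share replicate numbers: same-numbered arrays deviated together in every pair (correlation over 0.1) in 5 of the 16 comparisons of 2 groups (radiation, fTyS against control; radiation+fTyS against radiation and fTyS; SEW against FTY), over a range of -0.81 to 0.78, and 7 of 25 arrays correlated best with their own number.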

Additional observations from a re-analysis of the deposited data

Results flagged for a closer look

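On 2 members a control array stood apart from the other 3. Cers2 was 11.49 on control replicate 2, against 11.63 to 11.65 on the others, and Glb1 was 9.17 on control replicate 1, against 9.33 to 9.34. Chance flags about 1 in 20 groups in this way, and 34 members were checked. The response to radiation differed between mice with and without a compound, by the interaction in limma, for 5 members. Their share was not above that of all genes: 12.1% of members against 13.9% for SEW, and 6.06% against 6.85% for FTY. Under SEW the response was higher by 0.21 for Degs1, 0.34 for Smpd4, 0.39 for Galc and 0.33 for Glb1. Under FTY it was higher by 0.20 for Degs1 and differed by -0.62 for Cerk. The second bright Degs1 probe set gave the opposite sign (-0.44 with SEW and -0.35 with FTY), and averaged Galc probe sets gave 0.01.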

How the results depend on the processing

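Of 38 called results, 13 were kept with each array left out in turn, 8 under each of the other alternatives in which the gene was tested and 6 under both: Acer2, Smpd1, Ugt8a, Gla and Gm2a for radiation over the 4 backgrounds, and Cerk in radiation+FTY against FTY. Ugt8a, Gla and Smpd4 fell below the 60th percentile filter, so they had no test under it and no loss could be counted there. Ugt8a also passed the main filter of 6.49 through the irradiated arrays, with a mean of 6.46 on the unirradiated ones. The number of called members (main counts in the report) became, with no filter, 1 for radiation, 0 for FTY, 2 for the SEW interaction and 1 for the FTY interaction. Fitted on only the arrays compared, it became 0 for radiation, 1 for SEW, 0 for FTY, 0 for radiation+FTY against radiation, 1 for radiation+FTY against FTY, 2 and 1 for the SEW and FTY interactions and 0 for radiation+fTyS against radiation+FTY. With the 60th percentile filter it was 1 for SEW. With the muscle and adipocyte covariates it was 4 for SEW, 0 for FTY, 0 for radiation+FTY against radiation and 1 for fTyS against SEW. With median centring it was 0 for FTY, 0 and 1 for the SEW and FTY interactions and 0 for radiation+fTyS against radiation+FTY. With quantile normalization it was 3 for radiation+FTY against FTY, 1 for the SEW interaction and 0 for radiation+fTyS against radiation+FTY. With the mean of all probe sets it was 0 for FTY, 2 for radiation+FTY against radiation, 5 for radiation+SEW against SEW and 1 for fTyS against SEW. Array weights gave 5, 8 and 2 for fTyS, SEW and FTY, 1, 4 and 3 for these compounds added to radiation, 8 and 13 for radiation under fTyS and SEW, 3 and 6 for the fTyS and FTY interactions, 4, 1 and 12 for fTyS against FTY, SEW against FTY and fTyS against SEW, and 5 and 4 for radiation+fTyS against radiation+FTY and radiation+SEW. With array weights 15 of the 20 counts moved, all upward. The shares of all genes under these settings are not given beside the counts, so the moves are not read as results about the members. The cause of these moves was not tested, beyond the fewer samples of the fit on the arrays compared. Leaving out 1 array gave 0 to 3 for radiation, 9 to 11 over the 4 backgrounds, 1 to 4 for SEW, 0 to 1 for FTY, 0 to 1 for radiation+FTY against radiation, 1 to 5 and 2 to 6 for radiation under SEW and FTY, 1 to 5 and 0 to 3 for the SEW and FTY interactions, 0 to 1 for fTyS against SEW and 0 to 4 for radiation+fTyS against radiation+FTY. In 7 results the mean of all probe sets turned the direction, since probe sets of the gene disagreed: Galc to -0.068 over the 4 backgrounds and -0.048 under SEW, and Degs1 to -0.055 under SEW, -0.016 under FTY, -0.113 and -0.074 for the SEW and FTY interactions and 0.035 for radiation+fTyS against radiation+SEW. With the replicate block no count moved by over 1.5 times. The replicate number 4 occurs in the control alone, so the block also sets control replicate 4 aside. It gave 0.25 for Psap and 0.26 for Gm2a with radiation, as leaving out that array did. The block ended the calls of Sgms1 in radiation+SEW against SEW (adjusted p = 0.0545), Smpd3 in radiation+FTY against FTY (0.0582) and the Galc interaction with SEW (0.0677), and no other.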
